A study of Mus musculus with 8 samples.

Results

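Cx3cr1, P2ry12, Tmem119, Csf1r, C1qa, C1qb, C1qc, Trem2 and Tyrobp are 9 genes whose transcripts in healthy brain come mainly from microglia. They were found by exact gene symbol in a table of raw read counts that held 25815 genes, and all 9 had counts in every library and passed the filter on low counts. The table came from mice that carry a single amino acid change, aspartate to alanine, in CSTF2, a subunit of the complex that cleaves messenger RNA before the poly(A) tail is added. Poly(A)-selected RNA from total brain was sequenced at postnatal day 50. The mutant group, D50A, held 5 libraries from mice with the Cstf2 D50A allele. The wild-type group, WT, held 3 libraries from littermates with no treatment in either group. Both groups were on a C57BL/6NCrl background, reached by backcrossing and then breeding within the colony, and the labels give neither sex nor litter nor batch. The numbers given to libraries carry no pairing between mice. Each library is described as a separate mouse, so a p-value here measures the spread between libraries of single mice. In bulk RNA, fewer microglia and less RNA per microglial cell cannot be told apart.

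Microglia are the resident macrophages of the brain. They depend on the growth factor receptor encoded by Csf1r, sense injured cells through the ADP receptor encoded by P2ry12, and receive the neuronal chemokine fractalkine through the receptor encoded by Cx3cr1. C1qa, C1qb and C1qc encode the chains of C1q, which starts the classical complement pathway and is known for tagging synapses for removal. Trem2 encodes a lipid-sensing receptor that signals through the adaptor encoded by Tyrobp, and Tmem119 encodes a membrane protein widely used to tell microglia from other macrophages.

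The 9 genes together took 0.0289%, 0.0303% and 0.0301% of the counts of WT 1 to 3. They took 0.0317%, 0.0261%, 0.0293% and 0.0275% in D50A 1, 2, 4 and 5, and 0.0528% in D50A 3. Library totals ran from 13675945 to 24802272 counts, with the lowest in D50A 3. That library stood apart in other ways: 11.9% of its counts were on mitochondrially encoded genes, against 4.08% to 5.14% elsewhere, and its levels were shifted toward short transcripts. Across 12438 genes, the Spearman rho between the deviation from the WT mean and transcript length was -0.58 in D50A 3 and between -0.33 and 0.11 in the others. For a WT library, the deviation was taken from the mean of the other WT libraries. D50A 2 to 5 also held more RNA of a 12-gene cerebellum list, with summed levels of 1112 to 1514 CPM (counts scaled to a common library size) against 309 to 322 in WT and 311 in D50A 1. The fold changes of the 9 genes are given with and without D50A 3, because earlier work on these data had found that library to stand apart. The set without it keeps D50A 2, 4 and 5, where the cerebellum list was raised. D50A 1 had the highest rho between deviation and GC content, 0.67 against -0.46 to 0.36 elsewhere.

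No member passed edgeR's test between genotypes, with or without D50A 3, and limma-voom called 1, Trem2, lower in both sets of libraries. With all 8 libraries, 7 of the 9 log2 fold changes (D50A over WT) were positive and 2 negative, with a median of 0.20 against -0.01 over the 16810 genes tested. In edgeR's quasi-likelihood test the adjusted p ran from 0.84 to 0.93, and 0 members had an unadjusted p under 0.05. Over all genes tested, 0% passed at an adjusted p under 0.05 and 2.5% at an unadjusted p under 0.05. Without D50A 3, 3 log2 fold changes were positive and 6 negative, with a median of -0.12 and adjusted p from 0.49 to 0.98. In that fit 2 members, Cx3cr1 and Trem2, had an unadjusted p under 0.05, where 9.39% of 16754 genes did and 0% passed after adjustment. The groups overlapped for all 9 members in both sets of libraries. Across the genes tested, non-overlapping groups with D50A on the higher side made up 3.22% and with D50A on the lower side 4.24%. Without D50A 3 these shares were 4.79% and 5.8%. With all 8 libraries DESeq2 called 0 of the members it tested and gave no p for Tyrobp. It called 0.2% of the 18499 genes that had an adjusted p.

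**Figure D1:**
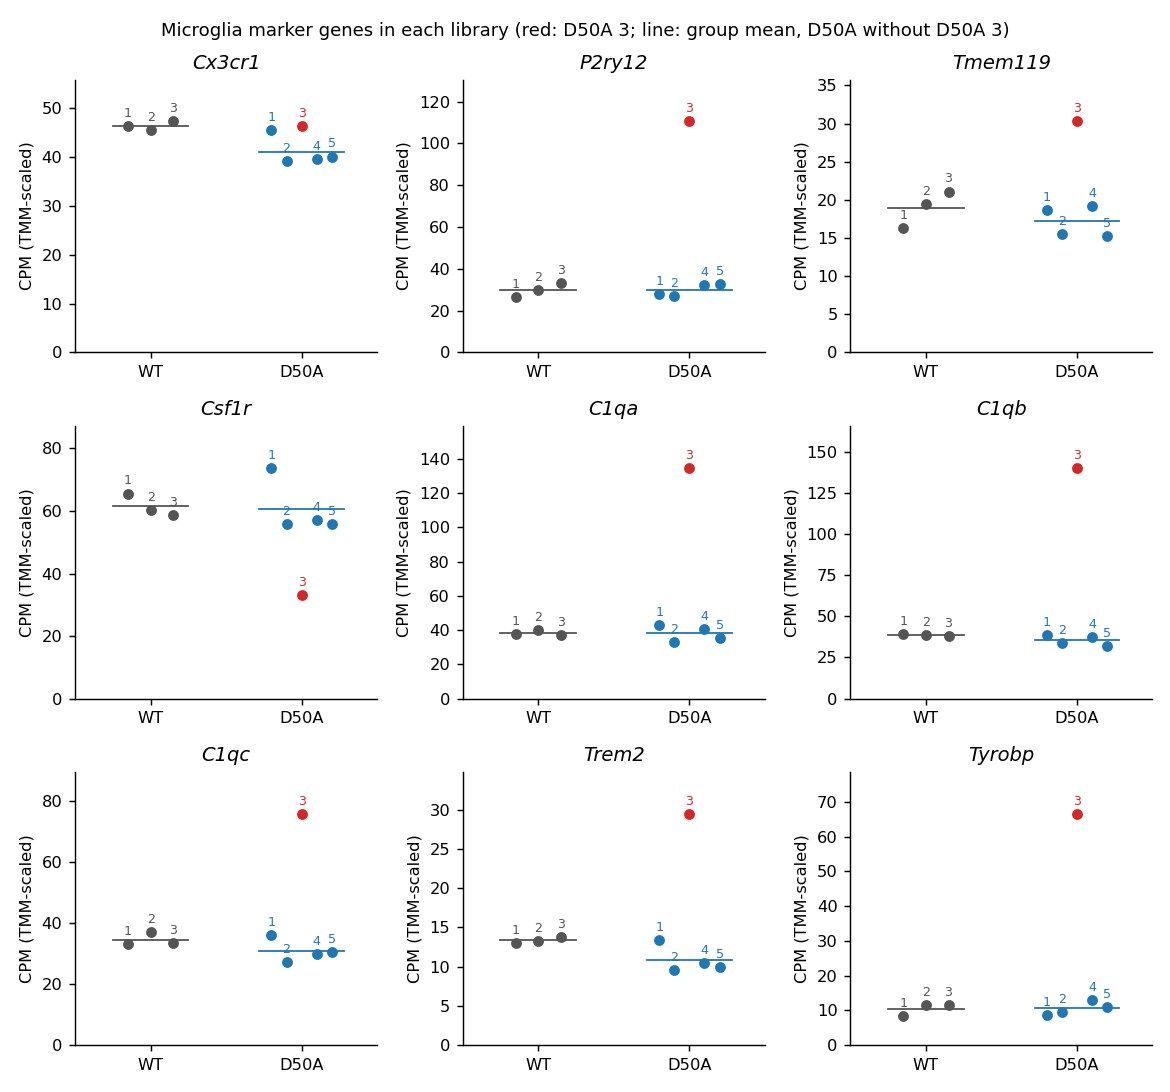
Level of each member in each library, for the 5 D50A libraries and the 3 WT libraries, with D50A 3 marked. Levels are in CPM scaled to effective library size, on a linear axis. D50A 3 lies above all other libraries for 7 of the genes, within the WT range for Cx3cr1 and below all others for Csf1r.

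The receptor genes for growth factor and fractalkine, Csf1r and Cx3cr1, were the members not raised above WT in D50A 3. Csf1r (ENSMUSG00000024621, chromosome 18, 61100598 to 61132149 on the plus strand of mm10) had 73.9, 55.8, 33.1, 57 and 55.7 CPM in D50A 1 to 5 and 65.6, 60.3 and 58.7 CPM in WT 1 to 3. D50A 1 was the highest library and D50A 3 the lowest, so the mutant group spanned the whole WT range. Its log2 fold change was -0.16 (SE 0.23, edgeR adjusted p = 0.84) with every library and -0.01 (SE 0.10) without D50A 3 (edgeR adjusted p = 0.98). The 95% interval of the latter, -0.24 to 0.22, gives the sizes of change that these libraries leave possible. Its ligands were close to WT outside D50A 3 as well. Csf1 stood at 21.8 to 28.2 CPM there against 21.2 to 24.2 CPM in WT, and at 7.49 CPM in D50A 3. Il34, the other ligand of the receptor, stood at 38.9 to 49.1 CPM against 40.3 to 47 CPM in WT, and at 69.5 CPM in D50A 3.

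Cx3cr1 (ENSMUSG00000052336, chromosome 9, 119901616 to 120069879, minus strand) had 45.6, 39.2, 46.4, 39.6 and 40.1 CPM in D50A 1 to 5 and 46.3, 45.5 and 47.3 CPM in WT 1 to 3. D50A 2, 4 and 5 lay below the WT range, D50A 1 lay within it and D50A 3 did too. The mean was 41.1 ± 2.99 CPM (SD, n = 4) in D50A without D50A 3 and 46.4 ± 0.942 CPM (SD, n = 3) in WT. With all 8 libraries its log2 fold change was -0.14 (SE 0.12, edgeR adjusted p = 0.84). Without D50A 3 it was -0.16 (SE 0.07, 95% interval -0.31 to -0.01), which did not pass after adjustment (edgeR, unadjusted p = 0.04, adjusted p = 0.5). Cx3cl1, which encodes the fractalkine ligand, stood at 435.6 to 634.6 CPM in D50A 1, 2, 4 and 5, overlapping 513.1 to 624.7 CPM in WT, and at 111.4 CPM in D50A 3. For Cx3cl1 the log2 fold change came to -0.38 (SE 0.45, edgeR adjusted p = 0.84), or -0.13 without D50A 3. Tgfb1, a cytokine that keeps microglia in their resting identity, had lower levels, at 3.4 to 5.3 CPM outside D50A 3 in D50A and 3.8 to 5.29 CPM in WT.

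The purinergic receptor P2ry12 (ENSMUSG00000036353, chromosome 3, 59216272 to 59262871, minus strand) had 28, 27.2, 110.6, 32.3 and 32.8 CPM in D50A 1 to 5 and 26.4, 29.8 and 33.1 CPM in WT 1 to 3. All of the excess lay in D50A 3, which was 3.71 times the WT mean. The other 4 mutant libraries fell inside the WT range, with a log2 fold change of 0.03, an SE of 0.10 and a 95% interval of -0.20 to 0.25 (edgeR adjusted p = 0.96). With D50A 3 the estimate was 0.63 (SE 0.50, edgeR adjusted p = 0.84). Tmem119 (ENSMUSG00000054675, chromosome 5, 113793729 to 113800516, minus strand) had 18.7, 15.5, 30.3, 19.2 and 15.3 CPM in D50A 1 to 5 and 16.3, 19.5 and 21.1 CPM in WT 1 to 3. D50A 3 was again the highest library, and D50A 2 and D50A 5 lay just under the lowest WT library. Its log2 fold change of 0.06 (SE 0.24) turned to -0.13 (SE 0.12) without D50A 3 (edgeR adjusted p = 0.93 and 0.79).

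The annotation places a gene on the opposite strand across exons of P2ry12 and of Csf1r, and whether reads were counted by strand is not known from the labels or files. Reads of Med12l and P2ry12, or of Hmgxb3 and Csf1r, may therefore not be told apart. An antisense gene with no entry among the counted genes overlaps exons of Cx3cr1 as well. Any reads from it may have been counted as Cx3cr1. Med12l stood at 11.6 CPM in D50A 3, 35.9 to 56.8 CPM in the other D50A libraries and 46.7 to 50.6 CPM in WT. In D50A 3 its level was low where that of P2ry12 was high. In WT, Hmgxb3 stood at 38.7 to 45.5 CPM, and D50A 3 had 9.71 CPM, low where Csf1r was low as well.

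The 3 C1q chain genes had the highest levels per transcript length in WT. They are encoded side by side on the minus strand of chromosome 4 in the order C1qb, C1qc, C1qa, within 18675 bases from 136880129 to 136898803. C1qa (ENSMUSG00000036887) had 43.2, 33.1, 134.8, 40.7 and 35.5 CPM in D50A 1 to 5 and 37.7, 39.8 and 37.1 CPM in WT 1 to 3. C1qb (ENSMUSG00000036905) had 38.7, 34, 140.3, 37.4 and 31.7 CPM against 39.2, 38.8 and 38.3 CPM. C1qc (ENSMUSG00000036896) had 36.2, 27.2, 75.9, 29.9 and 30.5 CPM against 33.2, 37 and 33.4 CPM. D50A 3 was the highest library for each chain, at 3.53, 3.62 and 2.19 times the WT mean for C1qa, C1qb and C1qc. Without D50A 3 the log2 fold changes were 0.01 (SE 0.09) for C1qa, -0.12 (SE 0.08) for C1qb and -0.15 (SE 0.10) for C1qc, with edgeR adjusted p of 0.98, 0.69 and 0.68. With it they were 0.59, 0.54 and 0.20, each with an edgeR adjusted p of 0.84.

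The balance of the chains also differed in D50A 3. C1qc made up 21.6% of all C1q counts there (exact Clopper-Pearson 95% interval 20.3% to 23%, covering counting error only). Its share was 27.7% to 31.2% in the other D50A libraries and 30.2% to 32% in WT, so the D50A 3 interval lies below every other library. The stretches upstream of C1qb and C1qc are shown because these neighbouring genes encode chains of 1 complex and yet shifted by different amounts in D50A 3. Each sequence holds the 250 bases before the RefSeq start on the minus strand of GRCm38.p6, at chr4:136886201-136886450 and chr4:136892915-136893164. Capitals mark 2 motifs searched on both strands: GAGGAA, a core of the sites bound by the macrophage factor PU.1 (gene Spi1), and GGAAGT, a core shared by many ETS factors.
C1qb: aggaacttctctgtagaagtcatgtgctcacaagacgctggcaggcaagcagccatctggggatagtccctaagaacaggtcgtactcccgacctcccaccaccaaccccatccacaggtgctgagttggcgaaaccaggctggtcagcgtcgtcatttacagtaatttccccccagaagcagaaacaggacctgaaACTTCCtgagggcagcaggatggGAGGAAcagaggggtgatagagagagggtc
C1qc: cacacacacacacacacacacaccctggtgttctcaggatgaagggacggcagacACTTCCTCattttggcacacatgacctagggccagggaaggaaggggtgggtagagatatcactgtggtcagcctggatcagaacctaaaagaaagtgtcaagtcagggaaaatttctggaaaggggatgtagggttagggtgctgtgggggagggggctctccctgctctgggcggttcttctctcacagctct
In C1qb the motifs lie apart, and in C1qc they overlap in 1 run read on the opposite strand. Of the 5 members with a promoter in the RefSeq table, 3 held GAGGAA, 3 held GGAAGT and 4 held either. Over 32851 promoters of the same length the shares were 23.3%, 19.7% and 36.7%. Such matches are common and are given as a description only.

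Trem2 and its adaptor Tyrobp had the lowest CPM of the set in every library but D50A 3, and Tyrobp was higher relative to Trem2 in D50A 3. Trem2 (ENSMUSG00000023992, chromosome 17, 48346401 to 48354147, plus strand) had 13.4, 9.58, 29.5, 10.4 and 10 CPM in D50A 1 to 5 and 13, 13.3 and 13.8 CPM in WT 1 to 3. D50A 1 lay within the WT range, D50A 2, 4 and 5 lay below it and D50A 3 lay above it. The mean was 10.8 ± 1.73 CPM (SD, n = 4) in D50A without D50A 3 and 13.4 ± 0.434 CPM (SD, n = 3) in WT. Over all 8 libraries the log2 fold change was 0.12 (SE 0.38, edgeR adjusted p = 0.9). It was -0.28 (SE 0.12, 95% interval -0.55 to -0.02) without D50A 3 (edgeR, unadjusted p = 0.038, adjusted p = 0.49). The stretch before its start, chr17:48346151-48346400 on the plus strand of GRCm38.p6, is shown with its single GAGGAA match, read on the opposite strand, in capitals.
Trem2: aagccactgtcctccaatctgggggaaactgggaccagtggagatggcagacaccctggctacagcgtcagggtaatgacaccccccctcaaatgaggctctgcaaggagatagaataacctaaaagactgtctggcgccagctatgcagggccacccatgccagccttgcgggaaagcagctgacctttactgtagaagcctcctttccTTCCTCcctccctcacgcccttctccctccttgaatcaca

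Trem2 passed the threshold in some other fits. limma-voom with sample quality weights gave D50A 3 a weight of 0.024 and D50A 1 a weight of 0.399, against 1.73 to 2.99 for the others, so that it differs from edgeR in both the tool and the weights. In that fit Trem2 fell by 0.38 on the log2 scale with an adjusted p of 0.038, the only member called; 1.05% of all genes were called lower there. limma-voom without D50A 3, again with sample quality weights, gave -0.38 and an adjusted p of 0.047, where 0.883% of genes were called lower. edgeR without D50A 1 and D50A 3 gave -0.40 (SE 0.09, adjusted p = 0.02) and also called Cx3cr1 lower, by 0.21 on the log2 scale with an SE of 0.06 (adjusted p = 0.038). In that fit 3.06% of 16591 genes were called lower, and C1qc had an edgeR adjusted p of 0.077. The mutant libraries kept there, D50A 2, 4 and 5, all had raised cerebellum list levels, and D50A 1, left out, had the GC trend given above. The part of either in these calls was not tested.

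Tyrobp (ENSMUSG00000030579, chromosome 7, 30413760 to 30417585, plus strand), the shortest transcript of the set, had 8.64, 9.58, 66.6, 13 and 10.8 CPM in D50A 1 to 5 and 8.23, 11.4 and 11.5 CPM in WT 1 to 3. D50A 3 was 6.42 times the WT mean, the widest gap of any member, while the other mutant libraries overlapped the WT values. Its log2 fold change was 1.05 (SE 0.74) for all 8 libraries (edgeR adjusted p = 0.84) and 0.03 (SE 0.17) without D50A 3 (edgeR adjusted p = 0.98). D50A 3 held 2.26 Tyrobp counts per Trem2 count, against 0.633 to 1.26 in the other 7 libraries. Partners of this pathway showed no call. Apoe, which encodes a lipoprotein bound by TREM2, stood at 1042 to 1246 CPM outside D50A 3 in D50A and 1039 to 1169 CPM in WT. Inpp5d, which encodes a phosphatase that restrains the pathway, stood at 9.75 to 13.5 CPM and 11.8 to 12.1 CPM in the same libraries.

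**Figure D2:**
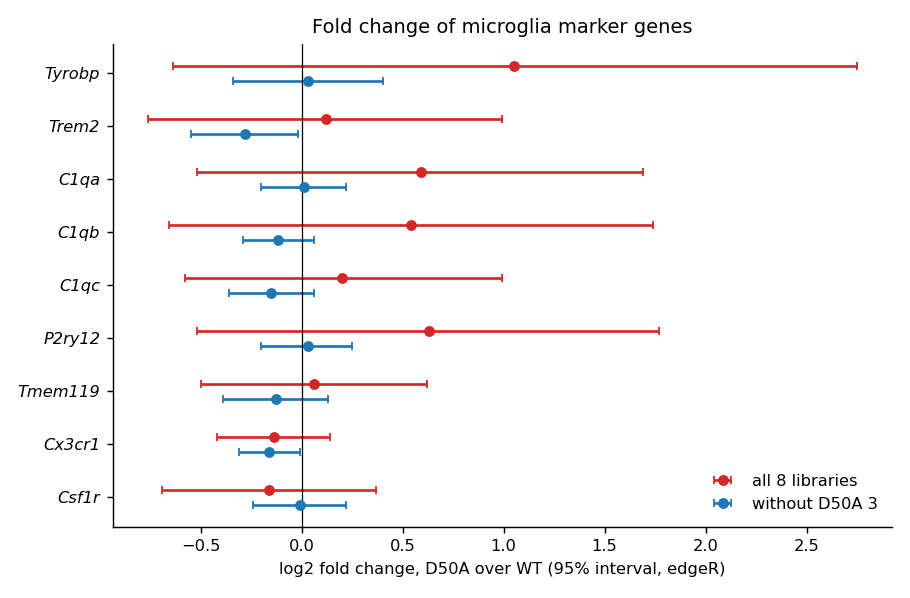
Log2 fold change of each member, D50A over WT, from edgeR with its 95% interval, for all 8 libraries and without D50A 3. The intervals narrow without D50A 3 and the positive estimates of Tyrobp, P2ry12, C1qa and C1qb move to within 0.12 of 0.

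Per transcript length, levels in WT formed a clear order at the top and a close one below. C1qa had 36.7 ± 1.37 CPM per kilobase (SD, n = 3) and C1qb 35.6 ± 0.423, which do not differ beyond their spread. C1qc followed with 28.7 ± 1.76 and Tyrobp with 18.4 ± 3.31 CPM per kilobase. Csf1r at 13.1 ± 0.76, P2ry12 at 12.7 ± 1.44 and Trem2 at 12.3 ± 0.399 CPM per kilobase do not differ beyond their spread. Cx3cr1 at 10.3 ± 0.21 and Tmem119 at 8.46 ± 1.1 CPM per kilobase were the lowest. Every other pair of neighbours in this order differed by more than the sum of their SDs. In D50A 3 the order was led by C1qa, C1qb and Tyrobp at 129.6, 129 and 118.1 CPM per kilobase, and Csf1r was last at 7.05. Lengths are those of the principal annotated transcript, and the isoforms in use were not measured.

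Levels of the members in D50A 3 tended to shift with transcript length, as they did for other genes of that library. Of the 9 members, 7 lay above the median of their length class. Deviations below are log2 differences from the WT mean or, for a WT library, from the mean of the other WT libraries. Tyrobp, with a transcript of 564 bases, deviated by 2.69, where 656 genes of up to 1000 bases had a median of 1.90 and quartiles of 1.14 and 2.45. C1qa, C1qb, C1qc and Trem2, of 1040 to 1203 bases, deviated by 1.82, 1.85, 1.13 and 1.14, where 1008 genes over 1000 and up to 1500 bases had a median of 1.21 and quartiles of 0.56 and 1.73. Tmem119, of 2242 bases, deviated by 0.68 and P2ry12, of 2344 bases, by 1.90, where 2646 genes over 1500 and up to 2500 bases had quartiles of -0.26 and 1.05. Csf1r, of 4701 bases, deviated by -0.89, close to the median of -0.93 of 4422 genes over 4000 bases, whereas Cx3cr1, of 4493 bases, deviated by 0. So 4 of the 9 members lay within the quartiles of their length class and 5 above the upper quartile. P2ry12, the farthest above its class median, has the lowest GC content of the set, 38.61% against 50.3% to 59.52%. In D50A 3 the Spearman rho between deviation and GC content was -0.03 over the 9 members and -0.28 over 12438 genes. The Spearman rho between deviation and length over the 9 members was -0.72 in D50A 3 and between -0.37 and 0.14 in the other D50A libraries. In WT 1, 2 and 3 it was 0.39, -0.68 and -0.32, over deviations that spanned at most 0.61, against 3.58 in D50A 3. These are descriptions over genes that share a library. The part of RNA length or GC content in the D50A 3 levels was not tested beyond these values.

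**Figure D3:**
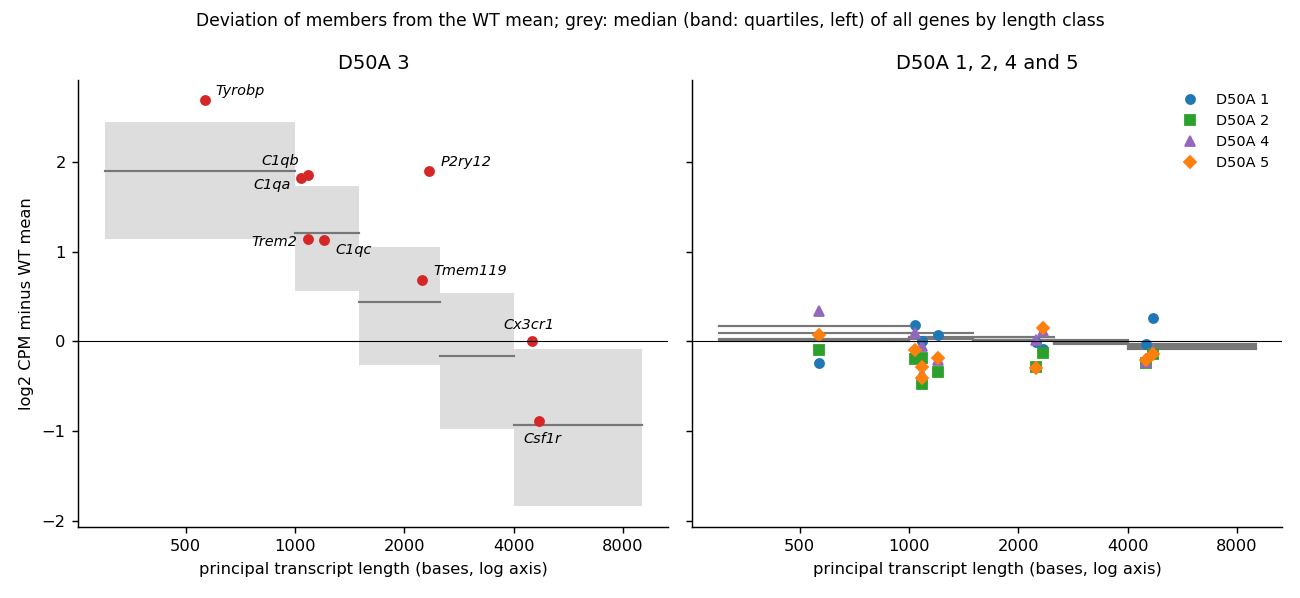
Left, deviation of each member in D50A 3 from the WT mean (log2) against transcript length on a log axis, with the median and quartiles of all genes in 5 length classes, of which the outer ones are open-ended. Right, the same members in D50A 1, 2, 4 and 5, where deviations span at most 0.70 within a library, against 3.58 in D50A 3.

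Outside D50A 3 the mutant libraries did not move alike. In D50A 1, 4 members lay above the WT mean and deviations ran from -0.24 to 0.26. In D50A 2, 0 members did, and deviations ran from -0.48 to -0.10. Over D50A 2, 4 and 5, 5 of the 9 members, Cx3cr1, Csf1r, C1qb, C1qc and Trem2, lay below every WT library, a state that 13.8% of all genes tested shared. These 3 libraries were grouped after their values were seen. They are also libraries with raised cerebellum list levels, at a mean log2 CPM of 6.07 to 6.49 over the 12 genes against 2.84 to 3.06 in WT and 2.85 in D50A 1. Genotype and the share of cerebellar RNA cannot be told apart for these libraries.

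Most pairs of members varied together, with 28 of 36 positive correlations over 8 libraries and 26 over the 7 without D50A 3. The Pearson correlation of log2 CPM between members had a median of 0.88 over 36 pairs and 8 libraries, and of 0.57 over the 7 libraries without D50A 3. C1qa with C1qb went from 0.99 to 0.68 and C1qc with Trem2 from 0.98 to 0.90, as D50A 3 was left out. Csf1r correlated with C1qa, C1qb, C1qc and Trem2 at -0.72 to -0.86 with D50A 3 and at 0.63 to 0.69 without it, and with Tyrobp at -0.95 and -0.67. The points share libraries and depth, so these values are descriptive. Among 13856 other genes with a mean log2 CPM above 1, those most like the mean of the members over 8 libraries were Nsmf, Hdac11, Hey1, Becn1, Ube2q1, 2010204K13Rik, Mmd2 and Ppp1r1a, with r from 0.994 to 0.997. Without D50A 3 their r was 0.88 to 0.97 over 7 libraries, and 4 of the 8 were again among the 8 most like genes. None of the other microglia genes listed was among the 8. The 25 of them among the candidates had a median r of 0.65 over 8 libraries, against -0.22 over all candidates. Without D50A 3 these medians were 0.47 and -0.0. In all, 3113 genes reached an r over 0.9 with D50A 3 and 28 without it.

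Other microglial genes gave no edgeR call either. Of 26 other microglia genes tested, edgeR called 0, with 11 positive and 15 negative log2 fold changes and a median of -0.06. Without D50A 3 the split was 5 positive and 21 negative, with a median of -0.08 and an edgeR adjusted p of at least 0.41. The transcription factor genes Spi1, Irf8 and Sall1 had log2 fold changes of -0.28, -0.14 and -0.02 without D50A 3 (edgeR adjusted p = 0.71, 0.83 and 0.98). Ikzf1, an Ikaros family factor gene, did not overlap between groups, at 3.19 to 3.98 CPM (D50A) against 4.3 to 4.63 CPM (WT) (edgeR adjusted p = 0.84, and 0.42 without D50A 3). Vav1, which encodes a signalling factor of blood-lineage cells, stood at 1.98 to 3.05 CPM (D50A) against 3.21 to 3.42 CPM (WT) (edgeR adjusted p = 0.84, and 0.68 without D50A 3). Aif1, the gene of the microglial stain IBA1, stood at 29 CPM in D50A 3 and between 4.61 and 6.67 CPM in all other libraries.

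Beyond C1q, the complement list gave 0 edgeR calls among 20 tested genes, with 7 positive and 13 negative log2 fold changes and a median of -0.18, or -0.03 without D50A 3. C3, the central component, ranged over 0.648 to 1.99 CPM (D50A) against 0.481 to 1.19 CPM (WT). C4b stood at 14.7 to 27 CPM outside D50A 3 in D50A and 17.3 to 19.7 CPM in WT. C3ar1, the receptor gene for the C3a fragment, had 1.6, 1.37, 1.39, 0.901 and 0.692 CPM in D50A 1 to 5 and 1.78, 2.13 and 1.9 CPM in WT, so every mutant library was lower. Its log2 fold change of -0.70 (SE 0.29) did not pass (edgeR adjusted p = 0.84), and limma-voom called it lower with all 8 libraries (adjusted p = 0.039) but not without D50A 3 (adjusted p = 0.07). C2, a protease of the classical pathway, was higher in every D50A library, at 0.791 to 1.43 CPM against 0.506 to 0.772 CPM, and no tool called it. Nptx2, which encodes a neuronal pentraxin that binds C1q, overlapped between groups and was called lower by limma-voom (adjusted p = 0.035, and 0.046 without D50A 3).

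Genes linked to disease-associated microglia, the state that Trem2 signalling is known to support, gave 0 edgeR calls among 16 tested. Their median log2 fold change was 0.36 with all 8 libraries and 0.03 without D50A 3. Spp1, which encodes osteopontin, had 19.8, 19.5, 31.3, 15.3 and 16.3 CPM in D50A 1 to 5 and 11.7, 12.5 and 10.1 CPM in WT 1 to 3. Every mutant library was above every WT library, with and without D50A 3. For Spp1 the log2 fold change was 0.83 (SE 0.25; edgeR, unadjusted p = 0.0098, adjusted p = 0.84) and 0.64 without D50A 3 (edgeR adjusted p = 0.19), and limma-voom called it higher (adjusted p = 0.015, and 0.016 without D50A 3). Lpl, which encodes lipoprotein lipase and was named after its values were seen, went the other way outside D50A 3. It stood at 21.3 to 24.2 CPM in D50A 1, 2, 4 and 5, at 57.4 CPM in D50A 3 and at 28.6 to 30.2 CPM in WT. Without D50A 3 its log2 fold change was -0.34 (SE 0.07; edgeR, unadjusted p = 0.00068, adjusted p = 0.19), and limma-voom called it lower (adjusted p = 0.022, and 0.019 with all 8 libraries). Spp1 is also transcribed in brain cells other than microglia, and its source was not measured. B2m, the light chain gene of MHC class I, stood at 60.9 to 129.5 CPM (D50A) against 54.9 to 60.1 CPM (WT) (edgeR adjusted p = 0.84, and 0.53 without D50A 3). Cd63, a lysosomal tetraspanin gene, overlapped between groups outside D50A 3, at 70.3 to 81.7 CPM against 70.2 to 80 CPM.

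Markers of other macrophages and of blood leukocytes were measured because they can add to shared myeloid transcripts. The 11 border macrophage genes summed to 24.1 to 39.5 CPM (D50A) against 30.4 to 34.3 CPM (WT), well under the members' sum of 251.1 to 306.3 CPM in D50A without D50A 3 and 285.9 to 295.4 CPM in WT. The members summed to 667.6 CPM in D50A 3. The 15 blood leukocyte genes summed to 4.71 to 27.7 CPM in WT, 9.99 to 36.3 CPM in D50A without D50A 3 and 63.1 CPM in D50A 3. In that list S100a8 and S100a9, abundant in neutrophils, stood at 23.2 and 24 CPM in D50A 3 and at no more than 13.6 CPM elsewhere. WT libraries differed widely, with S100a9 at 0.962, 0.911 and 9.39 CPM in WT 1 to 3. All 7 tested genes had positive log2 fold changes, with a median of 1.15, or 0.97 without D50A 3. Of these edgeR called 0. With all 8 libraries limma-voom called 1 higher, Ngp (adjusted p = 0.049), which did not pass without D50A 3 (limma-voom adjusted p = 0.071). Ccr2, a receptor gene of recruited monocytes, stood at 0.53 to 1.39 CPM (D50A) against 0.192 to 0.535 CPM (WT). The part of blood cells in the levels of the members was not tested.

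**Figure D4:**
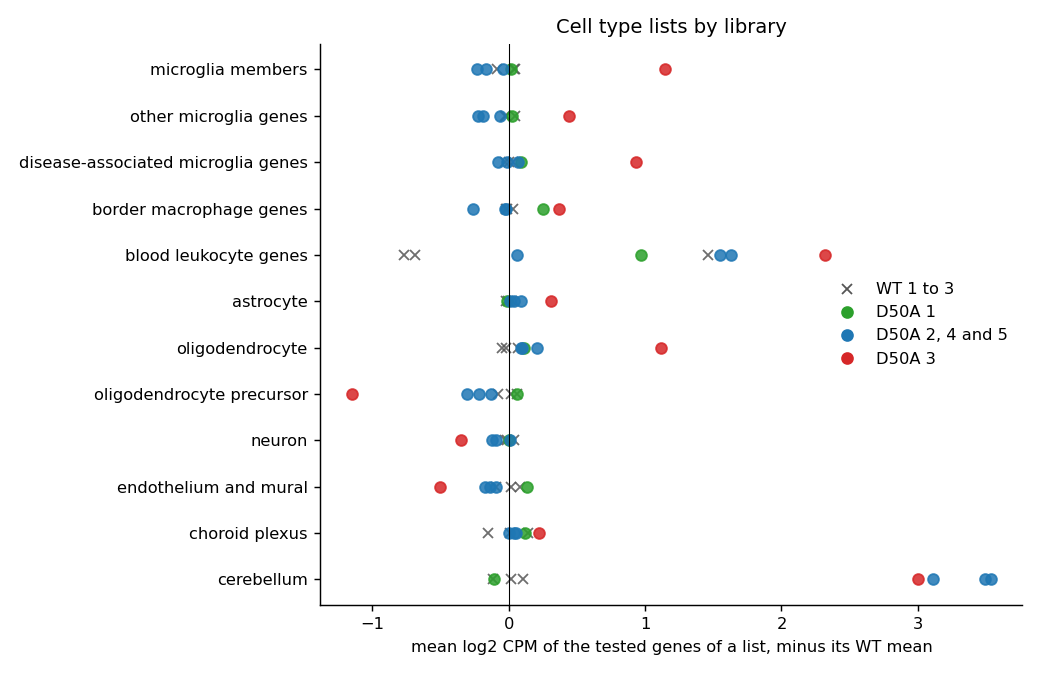
Mean log2 CPM of each gene list in each library, less the mean of the WT libraries, for the microglial lists and the lists of other cell types. In D50A 3 the members lie above their WT mean, as do the lists of other microglia, disease-associated microglia, border macrophage and blood leukocyte genes. The astrocyte, oligodendrocyte and choroid plexus lists also lie above theirs in D50A 3. Lists of oligodendrocyte precursors, neurons, and endothelium and mural cells lie below theirs in that library. By summed CPM in D50A 3, the border macrophage list (27.2) and the astrocyte list (4658.7) lay below WT instead. Their WT ranges were 30.4 to 34.3 and 4857.7 to 4995.5. The endothelium and mural list lay above WT by that measure, at 413 against 364.4 to 395.9. The cerebellum list is raised in D50A 2 to 5.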

How the data were processed

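For 8 libraries the authors deposited whole-number read counts by gene, not normalized. Tools named in the submitters' processing notes are STAR 2.5, HTSeq 0.6.1, CASAVA 1.8 and DESeq2 2, with build mm10. Strand setting and annotation release: not given in the sources used here. Groups follow the genotype label. The members and gene lists were chosen with earlier results of these data known.

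Counts were filtered (filterByExpr), TMM-scaled and tested with edgeR 4.0.16 in R 4.3.3, without covariates, with Benjamini-Hochberg adjustment over all genes at a threshold of 0.05. Log2 CPM used a prior count of 2, and SE is the log2 fold change over the square root of F. Alternatives were DESeq2 1.42.0 (7316 genes without an adjusted p), limma-voom with sample quality weights (limma 3.58.1), other scaling and filters, and libraries left out. DESeq2, limma-voom and further libraries left out after removing D50A 3 were added after seeing the data. Lengths and positions came from GENCODE M21. Named genes were all members, a set of ligands and regulators, and the 3 tested genes per list with the smallest unadjusted p, some of which are not reported here; lists of other cell types are given as sums. Totals per library ran from 13675945 to 24802272 counts, and the lowest count of any member was 171.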

Additional observations from a re-analysis of the deposited data

Results flagged for a closer look

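In the D50A group of 5, the gap between the highest library and the next one, divided by the range of the group, passed Dixon's 95% criterion for 7 of the 9 members, always with D50A 3 on the high side. The values in D50A 3 were 110.6 CPM for P2ry12, 30.3 for Tmem119, 134.8 for C1qa, 140.3 for C1qb, 75.9 for C1qc, 29.5 for Trem2 and 66.6 for Tyrobp. The mean log2 CPM over the members, 5.97 in D50A 3, passed as well. Among the 10 groups of values examined, 8 passed, with gaps of 0.74 to 0.935 of the range, and all come from 1 library, so they are not independent. Chance alone passes about 5% of such groups, but D50A 3 was already known from earlier results to stand apart. The passes therefore describe that library and do not test it. D50A 3 was also the library with 11.9% mitochondrial counts and the length shift given above.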

How the results depend on the processing

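No paired analysis was possible because the labels give no replicate numbers that link mice across the groups. For all 8 libraries, the count of genes past the threshold (0) became 37 with DESeq2, 482 with limma-voom and 1065 without D50A 1 and D50A 3, and ran from 0 to 26 over single libraries left out, with 26 without D50A 1. Members called (0) became 1 with limma-voom and 2 without D50A 1 and D50A 3, and stayed at 0 over single libraries left out.
The direction turned for Tmem119 (-0.13 without D50A 3, -0.04 without WT 1, -0.17 without D50A 1 and D50A 3, -0.17 with limma-voom, -0.02 with library totals), C1qa (-0.05 and -0.06 without D50A 1 and D50A 3 and with limma-voom), C1qb (-0.12 without D50A 3, then -0.16 in both), C1qc (-0.15, then -0.23 and -0.24) and Trem2 (-0.28, then -0.40 and -0.38). The cause was not tested. With single libraries left out, log2 fold changes ran from -0.13 to 0.14 for Tmem119, -0.12 to 0.69 for C1qb, -0.15 to 0.32 for C1qc and -0.28 to 0.24 for Trem2.
For the comparison without D50A 3, genes past the threshold (0) became 150 with DESeq2 and 417 with limma-voom, and ran from 0 to 1065 over further libraries left out; members called became 1 with limma-voom and ran from 0 to 2. Values near 0 changed sign: C1qa to -0.07 with limma-voom and from -0.05 to 0.07 with libraries left out, P2ry12 from -0.06 to 0.11, Csf1r from -0.12 to 0.03 and Tyrobp from -0.12 to 0.12. Of the 8 genes most like the members, 4 remained without D50A 3. The pooled SD of the members' mean log2 CPM was 0.46 with D50A 3 and 0.10 without it, which limits the differences that could be seen.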

Other observations

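Outside D50A 3, all 10 tested oligodendrocyte genes had positive log2 fold changes, with a median of 0.14, and edgeR called 0 (smallest adjusted p = 0.25). In D50A 3 that list summed to 21228 CPM, against 9546 to 10355 CPM in WT. Genes of oligodendrocyte precursors summed to 216.5 CPM in D50A 3 and to 372.8 to 417.5 CPM in WT.

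Cd59a, which encodes an inhibitor of the terminal complement complex and was named after its value was seen, had 28.1, 28.6, 140, 31.5 and 30.4 CPM in D50A 1 to 5 and 21.6, 23.3 and 23.3 CPM in WT. Every mutant library was above every WT library. The log2 fold change without D50A 3 was 0.39 with an SE of 0.07 (edgeR, unadjusted p = 0.00032, adjusted p = 0.19), and limma-voom on all 8 libraries called it higher (adjusted p = 0.018). Gpr34, a microglial receptor gene also named after its value was seen, stood at 78.1 CPM in D50A 3, 8.92 to 11.3 CPM in the other D50A libraries and 11.8 to 12.8 CPM in WT.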
